A study of Mus musculus with 6 samples.

Results

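The SIBLING proteins (small integrin-binding ligand N-linked glycoproteins) of mineralized matrix, the enzymes that act on them and the surface protein podoplanin were followed in primary mouse osteoblasts (PMOs) by gene array. The set held 8 genes, Ibsp, Spp1, Dmp1, Mepe, Dspp, Phex, Fam20c and Pdpn, and every array probe whose RefSeq transcript belonged to 1 of them was taken. This gave 12 of 39429 probes, for 8 of 20659 named genes. Ibsp, Dspp, Fam20c and Pdpn had 2 probes each and the others had 1. Probes entered the tests when the scanner software marked them as well above background on 2 or more arrays, which 9 of the 12 did. Both Dspp probes and the dimmer Fam20c probe did not.

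The osteoblasts came from calvaria of newborn CD1 mice aged 2 to 5 days. Undifferentiated osteoblasts were grown to confluence without differentiation medium. Differentiated osteoblasts were then kept for 30 days, per the labels, in medium with ascorbic acid and β-glycerol phosphate, while the results section of the study calls this stage D24. The cabozantinib group had the same medium and time with cabozantinib (XL184), an inhibitor of the receptor tyrosine kinases VEGFR2 and MET, at 100 nM per the study's methods. Each group had 2 arrays. The labels do not say whether these were separate cultures or mice, so the p-values measure the spread between these samples, which may be technical.

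SIBLING proteins are acidic, heavily phosphorylated secreted proteins that bind hydroxyapatite and carry the integrin-binding RGD motif. Their genes lie side by side. Ibsp encodes bone sialoprotein, a nucleator of hydroxyapatite made by osteoblasts at the onset of mineralization, and Spp1 encodes osteopontin, an inhibitor of crystal growth made by many cell types. Dmp1 and Mepe are products of late osteoblasts and osteocytes, and Dspp is the major SIBLING of dentin. Phex is a membrane endopeptidase of osteoblasts and osteocytes that degrades the mineralization-inhibiting ASARM peptides of SIBLING proteins, and its loss causes X-linked hypophosphatemia. Fam20c is the secretory pathway kinase that phosphorylates SIBLING proteins, and Pdpn (podoplanin, also called E11) is a membrane glycoprotein of early osteocytes and of lymphatic endothelium.

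Of the 8 genes, 7 had a promoter entry in RefSeq and Dspp had none in the table used. The 250 bases before the start of the 5 genes that changed between groups are shown because Dmp1, Ibsp, Mepe and Phex rose on differentiation while Spp1, from the same gene cluster, fell. Sequences are from the GRCm38.p6 assembly, read 5′ to 3′ on the strand of the gene, and for Dmp1 and Spp1 the outermost of 2 listed starts was used. Capitals mark matches to the TATA box (TATAAA), the CCAAT box (CCAAT), a RUNX motif (ACCACA), a homeodomain motif (TAATTA) and an AP-1 motif (TGANTCA), each searched on both strands.
Dmp1, chr5:104197325-104197574, plus strand: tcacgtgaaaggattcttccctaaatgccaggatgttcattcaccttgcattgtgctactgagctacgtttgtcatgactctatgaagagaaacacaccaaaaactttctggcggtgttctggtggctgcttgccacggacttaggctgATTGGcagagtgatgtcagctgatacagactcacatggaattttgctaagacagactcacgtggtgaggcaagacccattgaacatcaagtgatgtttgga
Ibsp, chr5:104299037-104299286, plus strand: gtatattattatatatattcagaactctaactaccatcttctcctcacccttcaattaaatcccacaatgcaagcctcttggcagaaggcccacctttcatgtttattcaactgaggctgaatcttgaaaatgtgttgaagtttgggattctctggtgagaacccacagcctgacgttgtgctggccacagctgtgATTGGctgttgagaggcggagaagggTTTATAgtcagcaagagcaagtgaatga
Mepe, chr5:104325079-104325328, plus strand: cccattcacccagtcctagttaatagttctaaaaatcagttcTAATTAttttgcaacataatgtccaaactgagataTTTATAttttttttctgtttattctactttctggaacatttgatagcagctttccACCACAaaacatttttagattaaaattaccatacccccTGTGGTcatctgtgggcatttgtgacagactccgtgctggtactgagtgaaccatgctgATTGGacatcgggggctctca
Spp1, chr5:104434861-104435110, plus strand: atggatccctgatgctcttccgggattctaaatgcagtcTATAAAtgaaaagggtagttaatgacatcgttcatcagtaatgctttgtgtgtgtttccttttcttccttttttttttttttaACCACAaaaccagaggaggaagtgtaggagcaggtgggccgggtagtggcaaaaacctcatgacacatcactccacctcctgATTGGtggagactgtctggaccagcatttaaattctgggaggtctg
Phex, chrX:157415287-157415536, minus strand: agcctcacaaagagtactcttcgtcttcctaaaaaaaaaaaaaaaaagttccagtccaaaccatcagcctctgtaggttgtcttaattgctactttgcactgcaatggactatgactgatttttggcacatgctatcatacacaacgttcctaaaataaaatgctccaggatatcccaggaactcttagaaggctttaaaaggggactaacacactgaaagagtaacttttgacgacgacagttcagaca

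A CCAAT box on the reverse strand (ATTGG) was found in all 4 SIBLING promoters shown, starting 101 bases before the start of Dmp1, 54 before Ibsp, 21 before Mepe and 46 before Spp1. Either orientation occurred in 33.8% of the 32851 promoters in the table. The RUNX motif was found in Mepe, at 118 and on the reverse strand at 80 bases before the start, and in Spp1 at 128. It occurred in 14% of all promoters. TATAAA was found on the reverse strand in Ibsp at 28 and in Mepe at 173 bases before the start. In Spp1 it was found on the forward strand at 211. Either strand had it in 12.4% of all promoters, wherever it lay in the window. The homeodomain motif was found in Mepe at 208 and in 4.84% of all promoters. No match to the AP-1 motif, present in 6.75% of promoters, was found in these windows, and the Phex window held none of the 5 motifs. No match overlapped another. At the second listed starts, not shown, Dmp1 had a RUNX match at 164 and a reverse CCAAT box at 57 bases before the start. Spp1 had a homeodomain match there at 122. The window of Fam20c, which was called in no comparison of the main fit, held a CCAAT box at 73. The matches describe letters in the reference and do not show binding.

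The arrays were 1-color (Cy3) Agilent Whole Mouse Genome arrays. Their signals were in arbitrary units. The 75th percentile of the probe signals ranged from 625 to 1773, 58.8% to 72.9% of the spots were well above background, and no spot was saturated. A level is given here as the log2 signal of a probe minus the 75th percentile of its array, and a difference as a log2 fold change with its standard error (SE). Levels of different probes are not comparable. Tests were limma fits over all probes with the group and the replicate number as terms. By the scan date in the file headers, the 4 arrays without cabozantinib shared 1 scan and the 2 cabozantinib arrays another, so scan and drug cannot be told apart. As markers of osteoblasts, Col1a1, Col1a2, Alpl, Bglap2 and Sparc were well above background on all 6 arrays, Sp7 on 4 and Runx2 on 3. The osteocalcin gene Bglap2 had levels of -0.08 and -0.32 in undifferentiated, 5.13 and 4.59 in differentiated and 4.64 and 4.94 in cabozantinib-treated osteoblasts. It rose by 5.06 on differentiation (adjusted p = 0.000486). No other of the 7 osteoblast markers on the array was called there, beside 10.7% of all named genes called. On differentiation 5 of the 7 were higher and 2 lower, Runx2 (-1.92, adjusted p = 0.0777) and Sp7 (-1.85, adjusted p = 0.0699). With cabozantinib against undifferentiated osteoblasts, Bglap2 was called higher (4.99, adjusted p = 0.000766) and Sp7 lower (-2.04, adjusted p = 0.0413).

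**Figure D1:**
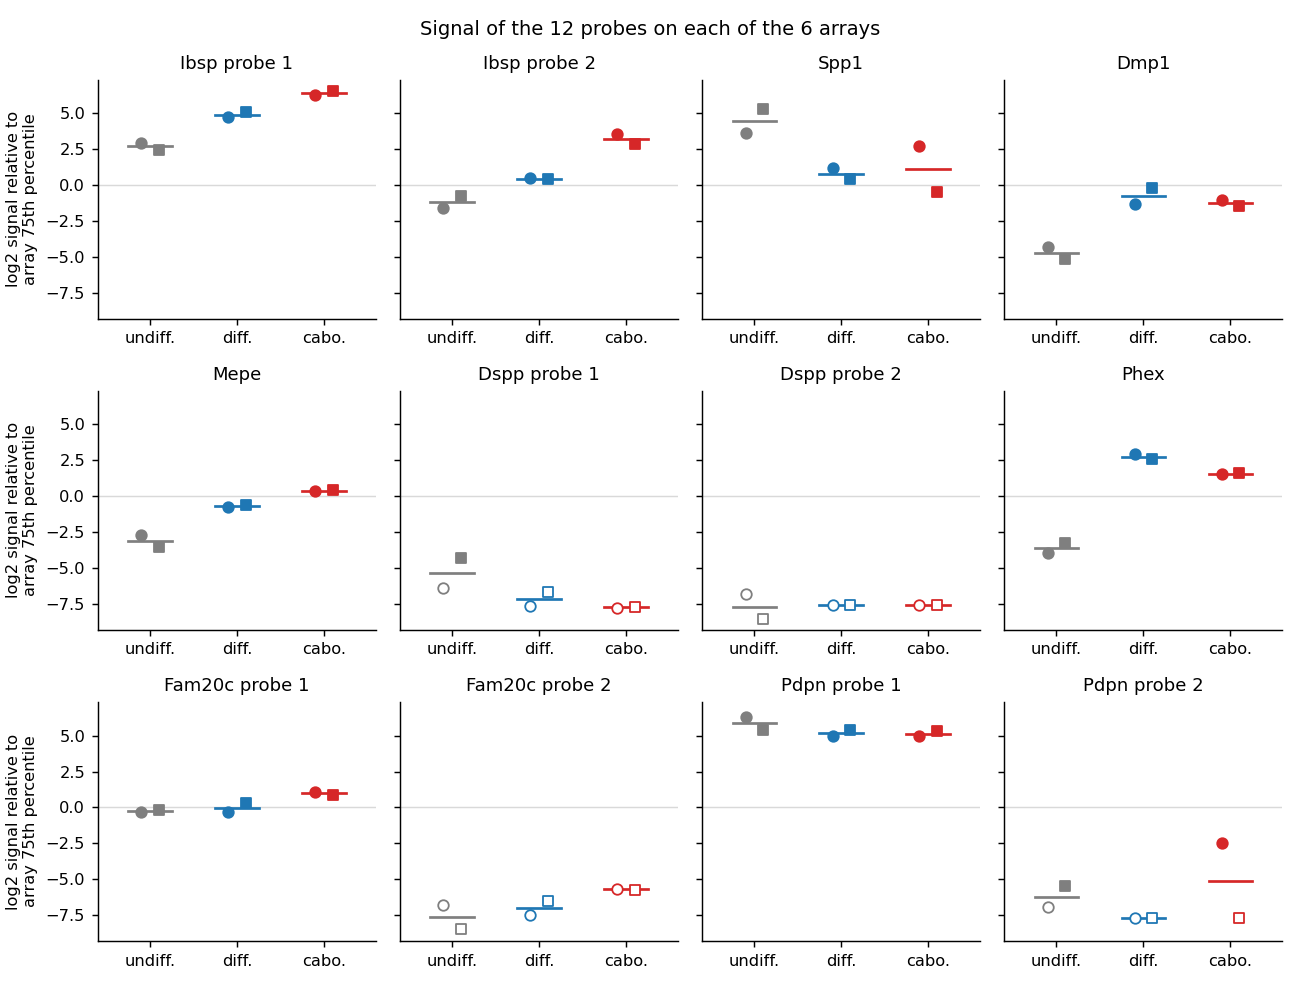
Level of each of the 12 probes (y axis, log2 signal relative to the 75th percentile of the array) on the undifferentiated (undiff., grey), differentiated (diff., blue) and cabozantinib (cabo., red) arrays; circles are replicate 1, squares replicate 2, lines the mean of 2 arrays, and open symbols probes not well above background. Ibsp and Mepe step up from group to group, Phex and Dmp1 are low only in undifferentiated osteoblasts, and the 2 cabozantinib arrays lie 3.17 apart for Spp1.

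Differentiation raised 4 of the 9 tested probes and lowered 1. Phex rose 83.3-fold, Dmp1 15.9-fold, Mepe 5.41-fold and Ibsp (probe 1) 4.61-fold, while Spp1 fell by 3.67 on the log2 scale. At an adjusted p under 0.05, 4.96% of all 27196 probes tested were called higher and 5.07% lower, 10.0% in all. The groups did not overlap for 8 of the 9 probes, 5 higher and 3 lower, beside 46.3% of all probes. The 3 lower include Pdpn probe 2, which was well above background on 1 undifferentiated and 0 differentiated arrays, so its separation was not measured. Under another background correction (normexp), Phex was still called, and the other calls were lost, with adjusted p = 0.117 for Dmp1 (2.33), 0.219 for Mepe (1.73), 0.0583 for Ibsp (2.27) and 0.061 for Spp1 (-3.56). In RNA of whole cultures, a change in the number of cells that make a transcript and a change in RNA per cell cannot be told apart.

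With cabozantinib, 1 of the 9 probes was called against differentiated osteoblasts, the second Ibsp probe, which was 6.64-fold higher. Over all probes, 0.136% were called higher and 2.37% lower, 2.51% in all. The groups did not overlap for 6 probes, 5 higher and 1 lower, beside 57.6% of all probes. The 5 higher include Pdpn probe 2, whose cabozantinib array 2 (-7.69) and differentiated arrays (-7.70 and -7.72) were below background. Its separation was therefore not measured. The median of all probes in this comparison was -0.27 with the percentile scaling and -0.06 after quantile normalization. The study listed Ibsp and Mepe among its cabozantinib-induced genes from these same arrays, so their direction here is not independent evidence. Against undifferentiated osteoblasts, 6 of the 9 cabozantinib probes were called, 5 higher and 1 lower, beside 4.46% higher, 9.15% lower and 13.6% in all. Here 8 probes did not overlap, 6 higher and 2 lower, beside 63.8% of all probes, and the median of all probes was -0.40 (-0.14 after quantile normalization). The differentiated arrays enter the first 2 comparisons and the undifferentiated arrays the first and last, so the comparisons are not independent.

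**Figure D2:**
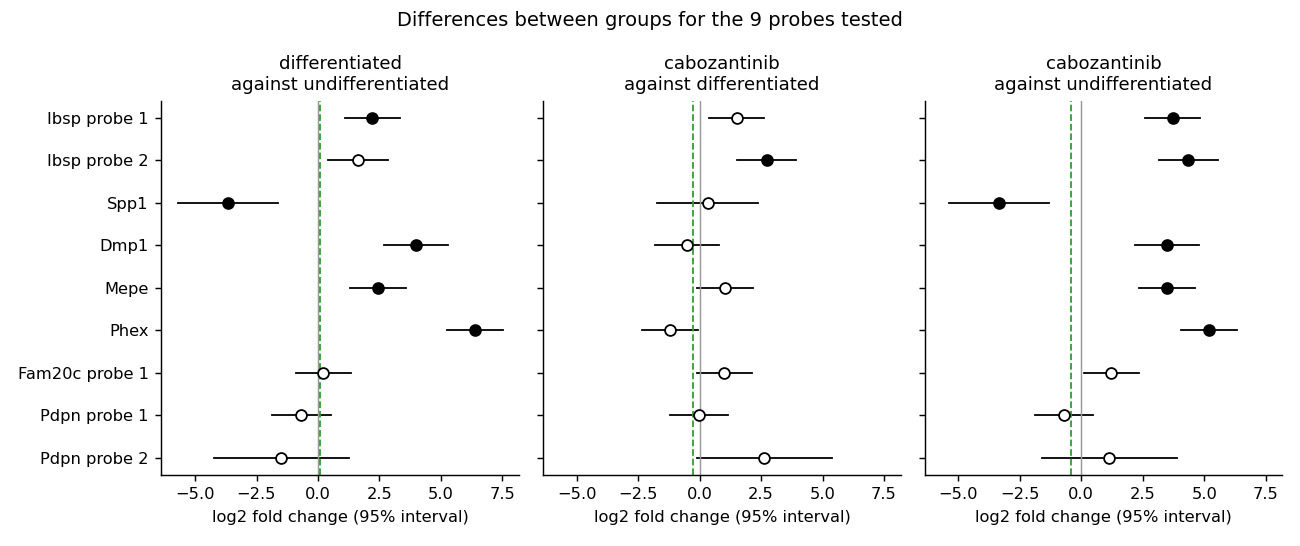
Log2 fold change (x axis) of the 9 tested probes in the 3 comparisons, with 95% confidence intervals; filled points have an adjusted p under 0.05 and the green dashed line is the median of all probes. Against undifferentiated osteoblasts, Phex, Dmp1, Mepe and Ibsp probe 1 lie to the right and Spp1 to the left in both outer panels, while 1 probe, Ibsp probe 2, is filled in the middle panel.

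Bone sialoprotein was read by 2 probes, which moved the same way. The first Ibsp probe had levels of 2.95 and 2.46 in undifferentiated, 4.74 and 5.09 in differentiated and 6.25 and 6.58 in cabozantinib-treated osteoblasts. The second had -1.58 and -0.77, 0.49 and 0.42, and 3.53 and 2.84 in the same order. For both probes the 3 groups were fully separated, with cabozantinib highest. On differentiation the first rose by 2.20 (SE 0.50, adjusted p = 0.022) and the second differed by 1.63 (SE 0.54, adjusted p = 0.0979, or 0.0449 without the replicate term). The call of the first was lost without undifferentiated array 2 (1.79, adjusted p = 0.0529), differentiated array 1 (2.42, 0.0924) or differentiated array 2 (1.99, 0.255). Cabozantinib against differentiated osteoblasts gave 1.5 (95% interval 0.38 to 2.63, adjusted p = 0.112) for the first and 2.73 (1.53 to 3.93, adjusted p = 0.0477) for the second. Relative to the median of all probes these are 1.78 and 3.01. The first probe was called when the 4 arrays compared were fitted alone (adjusted p = 0.0299) and without the replicate term (adjusted p = 0.0416). The fit of the 4 arrays called 6479 of all 27196 probes. Leaving out either undifferentiated array gives that same fit, so it is no separate check. The call of the second probe was lost under quantile normalization (2.77, adjusted p = 0.178) and without differentiated array 1 (2.80, 0.0825) or 2 (2.66, 0.231) or cabozantinib array 1 (2.20, 0.548) or 2 (3.26, 0.079). Both probes kept their sign in every alternative run. Against undifferentiated osteoblasts, the cabozantinib arrays were 13.1-fold higher by the first probe (adjusted p = 0.00294) and 20.5-fold by the second (adjusted p = 0.00194).

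Dmp1 (dentin matrix protein of bone and dentin), was at -4.31 and -5.16 in undifferentiated, -1.28 and -0.20 in differentiated and -1.02 and -1.48 in cabozantinib-treated osteoblasts. Undifferentiated cells were lowest, and the other groups overlapped. It rose by 3.99 on differentiation (SE 0.58, adjusted p = 0.00283), and by 3.41 with an adjusted p of 0.0607 without undifferentiated array 2. Cabozantinib against differentiated osteoblasts gave -0.51 (95% interval -1.81 to 0.79, adjusted p = 0.732), an interval that holds changes in either direction, and 0.36 without differentiated array 2. Against undifferentiated osteoblasts, Dmp1 was 11.2-fold higher in the cabozantinib group (adjusted p = 0.00706), and under normexp the difference was 1.93 (adjusted p = 0.298).

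Mepe (matrix extracellular phosphoglycoprotein), a main source of ASARM peptides, was at -2.67 and -3.53, then -0.73 and -0.60, then 0.34 and 0.42 in undifferentiated, differentiated and cabozantinib-treated osteoblasts. As for Ibsp, the groups were separated and cabozantinib was highest. It rose by 2.44 on differentiation (SE 0.51, adjusted p = 0.0151), a call lost without differentiated array 2 (2.17, adjusted p = 0.176). The cabozantinib arrays were 2.07-fold above the differentiated ones (95% interval on the log2 scale -0.10 to 2.19, adjusted p = 0.262), or 1.32 in log2 above the median of all probes. When the 4 arrays compared were fitted alone, the adjusted p was 0.0426 with the replicate term and 0.0619 without it. Leaving out either undifferentiated array repeats the first of these fits. Against undifferentiated osteoblasts, Mepe was 11.2-fold higher with cabozantinib (adjusted p = 0.00397).

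Osteopontin moved the other way, with a wide spread between replicates. Spp1 had signals of 7763 and 70240 units in undifferentiated, 2521 and 862 in differentiated and 8369 and 701 in cabozantinib-treated osteoblasts. The levels were 3.64 and 5.31, 1.20 and 0.41, and 2.71 and -0.46. Both undifferentiated arrays were above all others, but the 2 cabozantinib arrays fell on either side of the differentiated ones. Their gap of 3.17 was exceeded by 0.441% of all probes, and the undifferentiated gap of 1.67 by 4.77%. Spp1 fell by 3.67 on differentiation (SE 0.91, adjusted p = 0.032). This call rested on undifferentiated array 2, without which the difference was -1.84 (adjusted p = 0.228), and it was lost after quantile normalization (-3.82, adjusted p = 0.15) and without the replicate term (adjusted p = 0.0548). The cabozantinib arrays were lower than the undifferentiated ones by 3.34 (SE 0.91, adjusted p = 0.0414), a call likewise lost without undifferentiated array 2 (-1.52, adjusted p = 0.231) or cabozantinib array 2 (-1.54, adjusted p = 0.478), after quantile normalization (-3.42, adjusted p = 0.185) and without the replicate term (adjusted p = 0.0502). Cabozantinib against differentiated osteoblasts gave 0.32 (95% interval -1.73 to 2.37, adjusted p = 0.929), and -1.48 without cabozantinib array 1.

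Dspp, the dentin SIBLING, was well above background on 1 of 6 arrays by its first probe and on 0 of 6 by its second. The 1 array was undifferentiated array 2, with 89.6 units where the others had 4.56 to 7.44. Through this single array, the mean of the undifferentiated arrays was 1.48-fold above the background limit of the differentiated arrays. It was 1.09-fold above that of the cabozantinib arrays. The background limit is the lowest signal well above background on each array of the dimmer group. Undifferentiated array 1 (7.44 units) was below background and enters the mean, so these values are no lower bounds for the group. The enamel genes Amelx, Ambn, Enam and Mmp20 were not tested either, with 1 well above background on 1 array, undifferentiated array 2.

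Phex showed the largest change among the tested probes of the set. Its signals were 40.2 and 184 units in undifferentiated, 8478 and 3880 in differentiated and 3659 and 2960 in cabozantinib-treated osteoblasts, and the levels were -3.96 and -3.27, 2.95 and 2.58, and 1.52 and 1.62. The 3 groups were separated, with the cabozantinib arrays between the others. On differentiation Phex rose by 6.38 (SE 0.51, adjusted p = 0.000272), and by 5.97 to 6.79 with any single array left out, called each time. Cabozantinib against differentiated osteoblasts gave -1.20 (95% interval -2.34 to -0.05, adjusted p = 0.194), which is -0.92 relative to the median of all probes. When the 4 arrays compared were fitted alone, the adjusted p was 0.0445 with the replicate term and 0.0442 without it. Leaving out either undifferentiated array repeats the first of these fits. With cabozantinib, Phex was still 36.4-fold above undifferentiated osteoblasts (adjusted p = 0.000764).

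The kinase gene Fam20c was at -0.29 and -0.21, -0.35 and 0.30, and 1.07 and 0.87 by its first probe. Undifferentiated and differentiated arrays overlapped, and both cabozantinib arrays were above them. Differentiation gave 0.22 (95% interval -0.90 to 1.34, adjusted p = 0.93), and -0.14 without differentiated array 2. Cabozantinib gave 1.0 against differentiated (95% interval -0.12 to 2.12, adjusted p = 0.273) and 1.22 against undifferentiated osteoblasts (adjusted p = 0.127, or 0.049 without the replicate term). The second probe was not well above background on any of the 6 arrays, with 18.2 and 25.4 units on the cabozantinib arrays and 5.07 to 7.18 on the rest.

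Podoplanin was read by a bright and a dim probe. Neither was called in any comparison with all 6 arrays, and the dim one was well above background on 2 arrays. The first Pdpn probe was at 6.26 and 5.42, 4.96 and 5.36, and 4.94 and 5.33. It differed by -0.68 on differentiation (95% interval -1.87 to 0.51, adjusted p = 0.593) and by -0.02 between cabozantinib and differentiated osteoblasts (95% interval -1.21 to 1.17, adjusted p = 0.991), a value that turned to 0.12 after quantile normalization. Against undifferentiated osteoblasts, cabozantinib gave -0.70 (adjusted p = 0.408), and -1.32 with an adjusted p of 0.0364 without undifferentiated array 2. The second probe had 39.6 units on undifferentiated array 2 and 230 on cabozantinib array 1, the arrays where it was well above background, and 3.08 to 5.27 units elsewhere. The gap of 5.21 between its cabozantinib arrays was exceeded by 0.0184% of all probes. By this probe the mean of the cabozantinib arrays was 1.78-fold above the background limit of the differentiated arrays, measured on 1 of 2 cabozantinib arrays. The test with all 6 arrays gave an adjusted p of 0.236. Cabozantinib array 2 (-7.69) was below background, like the differentiated arrays (-7.70 and -7.72), so the 1.78 is no lower bound for the group. Without cabozantinib array 1 neither group was well above background. The adjusted p was 0.000102 without cabozantinib array 2 and 0.0302 without differentiated array 2, where the lone array of a group was assumed to vary like the other groups and, with the differentiated arrays below background, no exact size can be given. Against undifferentiated osteoblasts the adjusted p was 0.584, and 0.00254 without cabozantinib array 2.

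**Figure D3:**
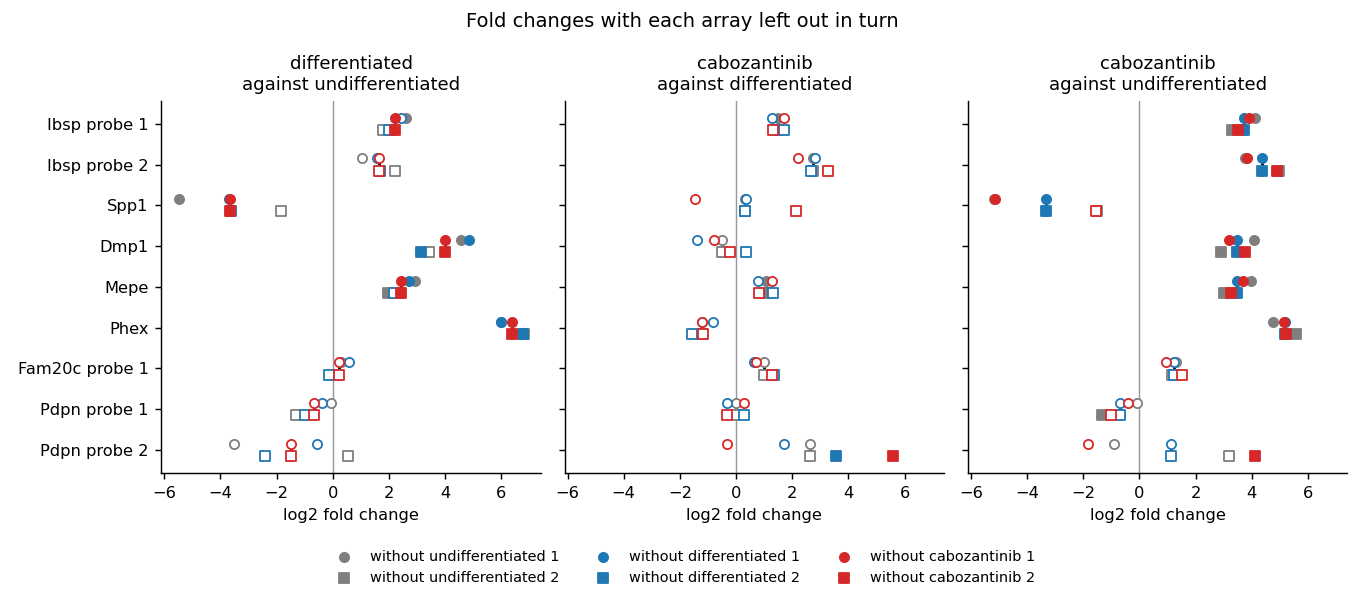
Log2 fold change (x axis) of the 9 tested probes with each of the 6 arrays left out in turn; color and shape give the array left out, filled symbols an adjusted p under 0.05, and black ticks the value with all arrays. Phex is filled throughout the left panel, at 5.97 to 6.79, while Spp1 ranges from -5.49 to -1.84 there and Pdpn probe 2 crosses 0 in every panel.

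Along the chromosome, RefSeq lists Dspp, Dmp1, Ibsp, Mepe and Spp1 in this order on chromosome 5, with Hsd17b13, Hsd17b11, Nudt9 and Sparcl1 on the Dspp side and Pkd2 next to Spp1. Sparcl1, a secreted relative of the matrix protein osteonectin, moved more than any of them on differentiation. Its levels were 0.53 and 0.06 in undifferentiated, 6.0 and 6.41 in differentiated and 3.54 and 3.81 in cabozantinib-treated osteoblasts. It rose by 5.91 on differentiation (adjusted p = 0.000307) and differed by -2.53 between cabozantinib and differentiated osteoblasts (SE 0.50, adjusted p = 0.0477), a call lost after quantile normalization, under which 0 genes of the 6 lists were called. The neighbour list also held Abcg2 and Ppm1k, which lie on chromosome 6 in the mouse. Of its 7 genes, 1 was called higher on differentiation (median 0.80), beside a median of 0.12 over all named genes and 10.7% of named genes called. None but Sparcl1 was called with cabozantinib against differentiated osteoblasts, beside 2.07% of named genes.

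**Figure D4:**
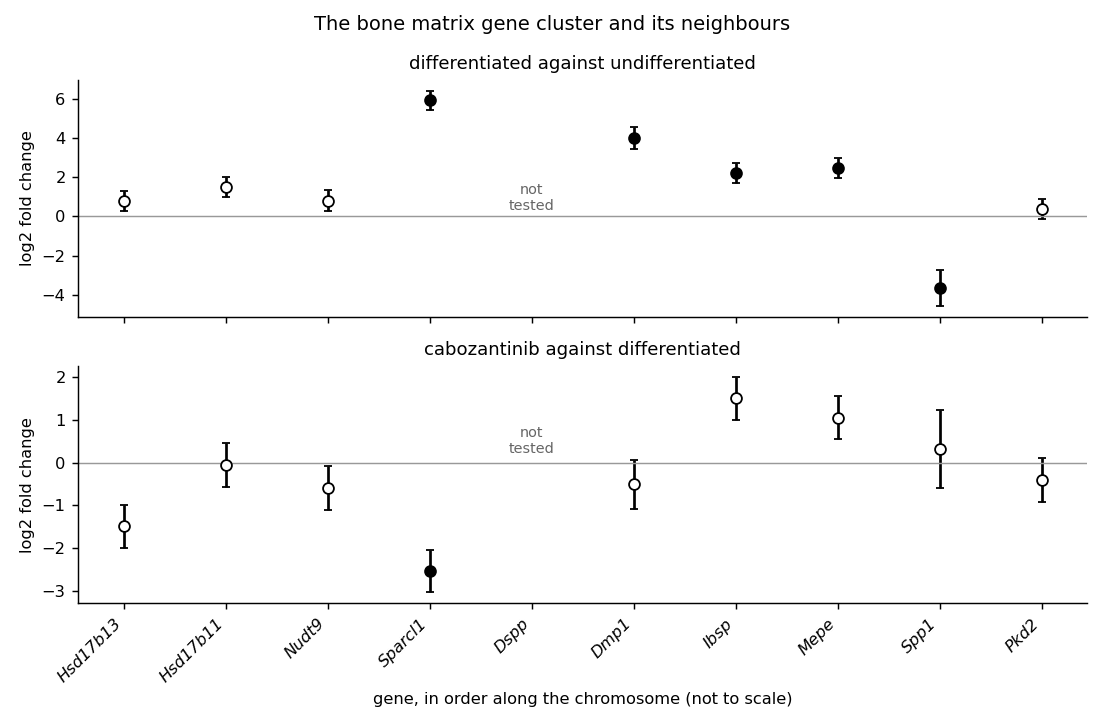
Log2 fold change with SE (y axis) for the SIBLING cluster and its neighbours in their order on chromosome 5 (x axis, not to scale); filled points have an adjusted p under 0.05. In the upper panel Sparcl1, Dmp1, Ibsp and Mepe are above 0 and Spp1 below; in the lower panel Sparcl1 is at -2.53, and Ibsp is drawn by its first probe at 1.5.

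Among 8 receptors of SIBLING proteins, Itga8, the integrin chain for osteopontin and nephronectin, rose by 1.98 on differentiation (adjusted p = 0.0457), and Itga5, the fibronectin receptor chain, fell by 3.32 (adjusted p = 0.00274). The median was -0.66. Over all named genes, 10.7% were called on differentiation. With cabozantinib against differentiated osteoblasts the 8 ranged from 0.03 for Cd44 to 1.55 for Itga5, with a median of 0.51 beside -0.21 over all named genes, and none was called. Itga5 was also listed by the study from these arrays, and its real-time RT-PCR showed an increase with cabozantinib as well. Of 15 processing and modifying enzymes tested, Acp5, the tartrate-resistant phosphatase of osteoclasts that dephosphorylates osteopontin, rose by 3.34 (adjusted p = 0.00494) and Mmp2, a gelatinase, fell by 2.90 (adjusted p = 0.0127). The medians of the enzymes were 0.48 on differentiation and -0.38 with cabozantinib against differentiated osteoblasts, where they ranged from -2.22 for Mmp7 to 2.11 for Mmp2, none called.

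In the axis of Phex and the phosphate-regulating hormone FGF23, 1 of 10 genes tested was called on differentiation, beside 10.7% of all named genes. The same share stands beside the transcription factors and osteocyte markers below. Mme (neprilysin), of the same peptidase family as Phex, rose by 2.11 on differentiation (adjusted p = 0.0264). Fgf23 itself was at 1.98 and -0.26, 0.22 and 1.20, and -0.45 and 0.32, overlapping in all groups. With cabozantinib against differentiated osteoblasts the axis ranged from -1.69 for Cyp27b1 to 1.29 for Npr3, and its medians were 0.18 on differentiation and -0.69 with the drug. Of 9 transcription factors tested, Gli1, a Hedgehog effector, rose by 3.47 (adjusted p = 0.00465), while the vitamin D receptor Vdr fell by 2.99 (adjusted p = 0.00428) and Msx2, a homeodomain factor, fell by 1.87 (adjusted p = 0.0401). With cabozantinib they ranged from -1.03 for Dlx5 to 1.36 for Vdr, with medians of -0.72 on differentiation and -0.11 with the drug. Of 9 other osteocyte markers, Dkk1, a secreted Wnt inhibitor, rose by 3.40 (adjusted p = 0.00318), and Sost, the osteocyte gene for sclerostin, gave -0.52 (adjusted p = 0.73). These ranged from -2.45 for Hyou1 to 1.51 for Dstn with cabozantinib, none called, and their median was -0.15 on differentiation and 0 with the drug. Dkk1, Vdr and Npr3 were also listed by the study from these arrays as higher with cabozantinib. For Dkk1 the study reported an increase by real-time RT-PCR and by ELISA as well.

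Against undifferentiated osteoblasts, the cabozantinib group had 9 genes of these 6 lists called, beside 12.6% of all named genes. Called higher were 1 of 7 neighbours, 1 of 8 receptors, 1 of 15 enzymes, 1 of 9 transcription factors and 2 of 9 osteocyte markers. The receptors, transcription factors and osteocyte markers had 1 lower each. Dkk1 (4.38), Sparcl1 (3.38), Gli1 (3.09), Acp5 (2.78), Ptprz1 (2.6) and Itga8 (2.55) were higher. Hyou1 (-2.56), Sp7 (-2.04) and Itga5 (-1.76) were lower, and the Phex and FGF23 axis ranged from -1.42 for Cyp24a1 to 1.39 for Npr3 with none called. Hyou1 was well above background on 2 of 6 arrays, Cyp24a1 on 3, Sp7 on 4 and Dkk1 and Ptprz1 on 5. For these genes the values are no exact sizes of a change.

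**Figure D5:**
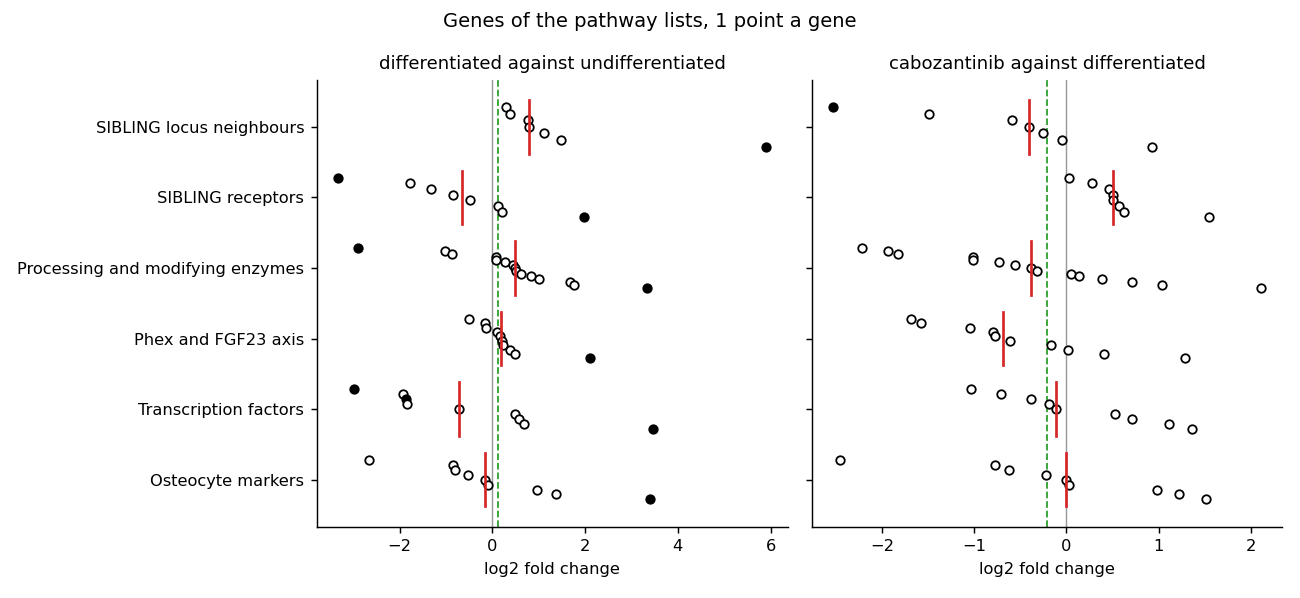
Log2 fold change (x axis) of each gene of the 6 lists (y axis) on differentiation and with cabozantinib; filled points have an adjusted p under 0.05, red bars are list medians and the green dashed line the median of all named genes (0.12 and -0.21). On the left 10 genes are filled, with Sparcl1 farthest right at 5.91, and on the right 1, Sparcl1 at -2.53.

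Some markers of other cells rose on differentiation beside Dmp1, Mepe, Ibsp and Phex, while others did not. The summed signal of 6 macrophage markers, in multiples of the 75th percentile, was 20.3 to 39.6 in undifferentiated, 192 to 297 in differentiated and 176 to 222 in cabozantinib-treated osteoblasts. On differentiation 3 of the 6 were called higher, Csf1r (2.84), Adgre1 (4.04) and Aif1 (3.70), and the same 3 with cabozantinib against undifferentiated osteoblasts. Over all named genes, 10.7% were called in the first and 12.6% in the second of these comparisons, in either direction. The 7 osteoclast markers summed to 34.5 to 55.4, 133 to 190 and 118 to 146, with Atp6v0d2 (5.28), Acp5 and Dcstamp (2.31) called on differentiation, while Calcr, the calcitonin receptor, was not well above background on any array. The 5 adipocyte markers summed to 1.5 to 1.99, 22.9 to 48.4 and 7.98 to 8.13, with Adipoq (4.52) and Fabp4 (4.38) called on differentiation. Of the tested macrophage, osteoclast and adipocyte markers, 5, 5 and 3 were higher on differentiation and 1 of each was lower. The lower ones were Lyz2 (-1.28) of macrophages, Ocstamp (-0.19) of osteoclasts and Plin1 (-1.52) of adipocytes, none called. Chondrocyte markers, at 90.2 to 192, 106 to 207 and 120 to 163, overlapped, though Matn3 (7.08) and Col10a1 (2.68) were called on differentiation. The 7 blood and lymphatic endothelial markers summed to 0.820 to 1.33, 1.12 to 1.43 and 0.713 to 0.861, with Tek and Prox1 not well above background on any array. Skeletal muscle markers were at 4.37 to 4.57, 0.937 to 1.12 and 2.33 to 3.03, where Acta1 was called lower on differentiation (-2.58), and erythroid markers at 0.138 to 0.443 over all arrays. Between cabozantinib and differentiated osteoblasts no macrophage, osteoclast, adipocyte, chondrocyte or erythroid marker was called, while Cdh5 (-2.40, after 2.18 on differentiation) and the muscle gene Mylpf (-2.76) were called lower. Adipoq, Matn3 and Mylpf were well above background on 4 of 6 arrays each and Cdh5 on 5, so their values are no exact sizes of a change. The part of these other cell types in the results was not tested.

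The genes whose levels over the 6 arrays were most like those of each member were ranked among 12869 genes well above background on every array, by the root mean square distance of centered log2 levels. For Ibsp they were Pappa2 (0.10), Col22a1 (0.13) and Limch1 (0.18), and for Mepe they were Car10 (0.14), Il10ra (0.19) and Gucy1a1 (0.20). Pappa2 and Col22a1, like Ibsp, were listed by the study as higher with cabozantinib from these arrays. Phex was nearest to Itih5 (0.28), Cd36 (0.31) and Prkcb (0.40), and Dmp1 to Trem2, Il21r and Mcoln2 (0.30 each). Spp1 had no gene closer than Rabggtb (0.38), followed by Anxa3 (0.39) and Calu (0.55). Fam20c was nearest to Ralgps2 (0.16) and Pdpn to Atp11a and Mul1 (0.05 each). Within the set the closest pair was Ibsp and Mepe, at 0.23, and the farthest Spp1 and Phex, at 4.53. These distances rest on 3 groups of 2 arrays that share their scaling.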

How the data were processed

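Per the file headers, the 1-color scanner output was made with Feature Extraction 11.0.1.1, and its intensity values (background-subtracted signal, median signal and local background, arbitrary units) were not scaled between arrays. The authors also deposited log2 values of 30439 probes, with array medians of 7.504 to 7.506; their normalization is not given in the sources used here, and their correlation with the log2 scanner signals was at least 0.998. RNA was collected for 3 groups of 2 arrays, named from the sample titles.

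The files hold no gene names, so probes were named through RefSeq transcript accessions (GRCm38.p6 table), which named 69.1% of 39429 probes. Control and outlier spots were removed, replicate spots of a probe combined as their mean log2 signal, and levels expressed relative to the 75th percentile of their array. Probes missing on an array (77) were dropped, and those well above background by the scanner software on at least 2 arrays were tested (27196 probes, 16120 named genes, each at its brightest probe). limma 3.58.1 in R 4.3.3 was fitted on all 6 arrays with group and replicate number, a term chosen because the study's methods name a paired test. The data did not bear the numbers out as pairs for the undifferentiated arrays, so calls of members that change without the term are given beside the results. This left 2 residual degrees of freedom, and 7.67 were added by pooling variances. P-values were two-sided, with Benjamini-Hochberg adjustment over all probes and a threshold of 0.05. An exact permutation test of 2 against 2 arrays cannot go below 0.333, so none is given. The precision is limited by the number of arrays.

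The members and lists were chosen with earlier results of these data known. All 12 probes of the 8 genes are named. From each list the called genes are named, at most the 4 largest, or the highest and lowest where none was called, and Sost, Fgf23 and Bglap2, and which cell markers to name, were added after their values were seen. Data were simulated for 27196 probes with independent normal noise, and 50 probes were changed at each size. The spread of each probe was drawn toward the median spread of all probes. The test of differentiated against undifferentiated recovered 18% of probes changed by 2 on the log2 scale, 90% of those changed by 3 and 100% of those changed by 4. For cabozantinib against differentiated this was 12%, 78% and 100%. The real data gave 2728 calls on differentiation, far more than the probes changed here, so these rates need not hold there. Alternatives were other scaling, background correction, filters, replicate terms, tests and each array left out. Figures were drawn with matplotlib 3.10.9 in Python 3.11.15. Protein sequences were not used here.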

Additional observations from a re-analysis of the deposited data

How the results depend on the processing

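The member probes called were 5 on differentiation, 1 for cabozantinib against differentiated and 6 for cabozantinib against undifferentiated osteoblasts. On differentiation the count was 1 with normexp (offset 50) and 3 with no filter. Cabozantinib against differentiated osteoblasts gave 0 with quantile normalization, the authors' values, normexp, no filter, or probes well above background on all 6 arrays. Quantile normalization and the authors' values both gave 2.77 for Ibsp probe 2 and -1.14 for Phex, so they are hardly separate checks. The same comparison gave 2 with no replicate block, 4 with the compared arrays alone and 3 with those and no block. These settings called 3413, 6479 and 5601 of all 27196 probes, beside 682 in the main fit. Leaving out either undifferentiated array gives the same fit as the compared arrays alone. By the methods' t-test, paired by number, 0 members were called in every comparison after Benjamini-Hochberg, and 0, 2 and 2 unadjusted, beside 1611, 4435 and 2152 of all probes. By the unpaired test 0 were called after adjustment, and 4, 4 and 6 unadjusted, beside 4150, 5729 and 6326 of all probes. With each array left out, so that 1 group had a lone array assumed to vary like the others, the counts ranged from 2 to 5 and from 0 to 4. Against undifferentiated osteoblasts the count was 6 each time but not of the same probes: without undifferentiated array 2 Spp1 was lost and Pdpn probe 1 gained, and without cabozantinib array 2 Spp1 was lost and Pdpn probe 2 gained. The difference between replicates 1 and 2 within a group, taken over all tested probes, was correlated between groups. This gave -0.51 (undifferentiated with differentiated), -0.53 (undifferentiated with cabozantinib) and 0.26 (differentiated with cabozantinib). As given, the numbers do not pair the undifferentiated arrays with the others, and they pair the other groups weakly at most. Whether the undifferentiated numbers are crossed was not tested. Without the replicate block the counts were 5, 2 and 6: Spp1 was lost against undifferentiated osteoblasts (adjusted p = 0.0548 for differentiated and 0.0502 for cabozantinib), and Ibsp probe 2 on differentiation (0.0449), Ibsp probe 1 with cabozantinib against differentiated (0.0416) and Fam20c against undifferentiated osteoblasts (0.049) were gained. After the data were seen, the numbers of the undifferentiated arrays were exchanged, giving 6, 5 and 7 calls, and quantile normalization was run with no block, giving 4, 0 and 6.

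Probes called over all features in the same order numbered 2728, 682 and 3700, against 2433, 0 and 1515 after quantile normalization, 756, 0 and 513 with normexp, 1741, 0 and 1393 with no filter and 3782, 3413 and 6644 with no block. For the lists, cabozantinib against differentiated osteoblasts had 1 call, and 3 by the mean of a gene's probes, 9 with no block and 0 after quantile normalization; against undifferentiated osteoblasts 9 became 15 with no block and 4 after quantile normalization.

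Signs turned for Pdpn probe 1 with cabozantinib against differentiated osteoblasts, at 0.12 with quantile normalization, with or without the block, and with the authors' values, and from -0.34 to 0.29 with single arrays left out (0.28 without cabozantinib array 1). With single arrays left out, that comparison also crossed 0 for Pdpn probe 2 (-0.34 to 5.6), Dmp1 (-1.38 to 0.36) and Spp1 (-1.48 to 2.13). So did Pdpn probe 2 against undifferentiated osteoblasts (-1.83 to 4.11, -0.91 without undifferentiated array 1), and on differentiation Pdpn probe 2 (-3.53 to 0.55) and Fam20c (-0.14 to 0.58). The values of Pdpn probe 2 rest on signals below background on 4 of 6 arrays and are not sizes of a change. The causes were not tested. Scan date could not be fitted beside cabozantinib. Below the limit of well above background, as for Dspp, no level could be measured.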
